A study of Homo sapiens with 9 samples.

Results

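The nuclear receptor genes of Huh-7 cells were examined in the Huh-7 control and in the knockout clones Ako-3 and Mko-3. Huh-7 is a human hepatoma line that makes and secretes lipoproteins containing apoB100. The 43 genes were chosen by name as members of the nuclear receptor superfamily. Their measured values were not the criterion, but earlier results of these data were known. All 43 were found once each among the 58735 genes of the count table. They were grouped here into 11 classes by role. Messenger RNA was sequenced from 9 libraries, 3 of each group. The control cells were unedited Huh-7 cells with the genotype WT. Ako-3 is Huh-7 with the genotype APOB knock out, made with CRISPR-Cas9 and grown out from limiting dilution. Mko-3 is Huh-7 deficient in the MTTP gene, which encodes the microsomal triglyceride transfer protein that lipidates apoB. All 3 groups were grown in medium with fetal bovine serum, washed and kept overnight in medium without serum before RNA was taken. Each knockout was 1 clone, and the same 3 control libraries served both, so a difference that belongs to the clone and not to the edited gene cannot be told apart from the knockout.

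Nuclear receptors are transcription factors that mostly bind small lipophilic molecules, such as bile acids, oxysterols, fatty acids, retinoids, thyroid hormone and steroids. Many of them pair with a retinoid X receptor (RXR) on DNA, recruit corepressors or coactivators according to the ligand, and thereby set the transcription of target genes. In liver they govern bile acid synthesis, lipid and glucose metabolism and drug clearance, and the REV-ERB and ROR receptors form an arm of the circadian clock.

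The library totals ranged from 14638727 to 20179760 counts. APOB was at 3354 ± 609 CPM (counts scaled to library size, SD, n = 3) in control cells, 1315 ± 91.2 CPM in Ako-3 and 3258 ± 147 CPM in Mko-3. MTTP was at 634 ± 29.7, 572 ± 29.3 and 87.0 ± 3.86 CPM in the same order, so each targeted transcript was lowest in the clone labelled with it. Of 10 hepatocyte markers, including ALB, AFP and TTR, 10 exceeded 1 FPKM in every group, and 0 of 5 fibroblast markers did. The leukocyte genes PTPRC and CD3E were at 0 in every control library. In each clone neither was at 0 in all libraries, and neither had a mean above 1 FPKM. LYZ, CD14 and the endothelial marker PECAM1 exceeded 1 FPKM in every group, and the endothelial marker CDH5 did so in Mko-3 only. Mitochondrial transcripts took 7.28% ± 0.19 of the counts in Ako-3, 5.78% ± 0.34 in control cells and 5.80% ± 0.036 in Mko-3, and their part in the values below was not tested.

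Levels were read as FPKM, the fragment count of a gene scaled by its length and by library size. Gene length is divided out so that genes can be set side by side. The same length serves all isoforms of a gene, so the order between genes depends on it. Of the 43 genes, 30 had a mean above 1 FPKM in each of the 3 groups, and these were the same 30 genes. NR0B1, RXRG and PGR had 0 counts in all 9 libraries, and NR2E3, the photoreceptor-specific receptor, had 1 count in 1 control library. At these depths a count of 0 still allows up to 3 counts per library, and this limit covers counting error only. NR4A3, ESR1 and ESR2, the latter pair being the oestrogen receptors, reached at most 8 counts in a library and were not tested either. The other 36 genes passed the filter on low counts in each comparison.

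The control cells carried a steep order of levels (the plot of levels by library). NR2F6, an orphan receptor of the COUP-TF branch that acts mostly as a repressor, was highest at 131 ± 14.7 FPKM. HNF4A, the lineage factor that keeps up hepatocyte gene expression, followed at 64.0 ± 0.621 FPKM, and NR1H4, the bile acid receptor FXR, at 57.9 ± 4.78 FPKM. In CPM, which is not divided by length, HNF4A stood above NR2F6 in control cells (473 ± 5.28 against 353 ± 39.1). Every control library of HNF4A (63.3 to 64.5 FPKM) lay above every control library of NR1H4 (52.3 to 60.9 FPKM). ESRRA, a regulator of mitochondrial genes, and PPARG, the adipogenic fatty acid receptor, came next at 24.3 ± 2.59 and 23.2 ± 0.824 FPKM, within their spread of each other. NR0B2, the bile acid induced repressor SHP, stood at 20.2 ± 2.28 FPKM. NR2F6, HNF4A and NR1H4 kept ranks 1 to 3 in both clones. Together they held 49.6% ± 0.964 of the summed FPKM of the 43 genes in control cells, 57.6% ± 0.687 in Ako-3 and 55.0% ± 0.183 in Mko-3. HNF4A alone rose from 12.6% ± 0.462 of that sum in the control to 18.6% ± 0.170 in Ako-3 and 16.1% ± 0.321 in Mko-3, with no overlap between the groups' libraries.

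**Figure D1:**
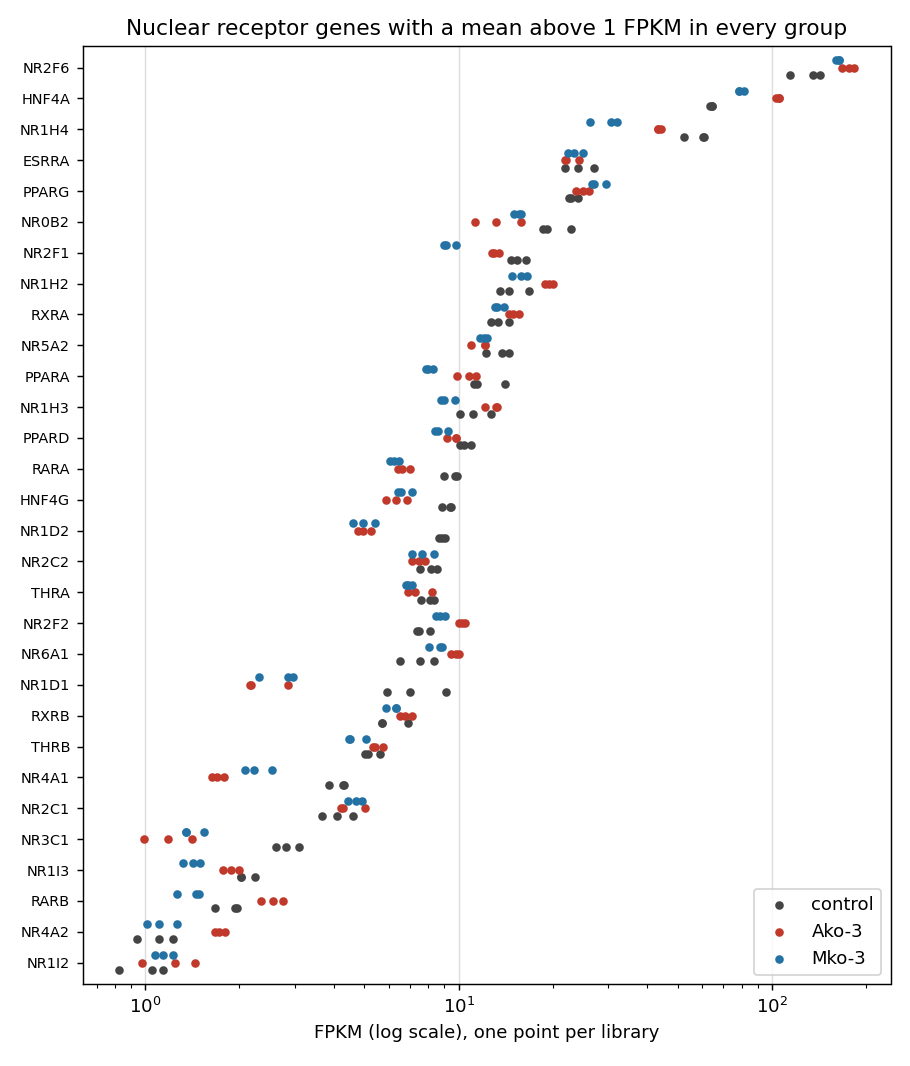
FPKM of the 30 nuclear receptor genes with a mean above 1 FPKM in every group, 1 point per library on a log axis, coloured by group and ordered by the control mean. NR2F6, HNF4A and NR1H4 sit at the top in all groups, and the control points of NR1D1, NR4A1 and NR3C1 lie to the right of all points of both clones.

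Each clone was then compared with control cells by edgeR's quasi-likelihood test over all genes, and a gene was called when its log2 fold change was at least 1 in size and its Benjamini-Hochberg adjusted p at most 0.05. In Ako-3, 5 of the 36 tested receptors were called, all lower: NR1D1, NR5A1, RORA, NR4A1 and NR3C1. That is 13.9% of the receptors, where 8.52% of all 15787 genes tested were called and 5.00% were called lower. In Mko-3, 3 of 36 were called, all lower: NR1D1, NR5A1 and NR3C1. Their share of 8.33% stood against 11.0% of all 15745 genes, with 7.22% called lower, so receptors were called at about the background rate. Between the clones only RORA was called, higher in Mko-3, which is 2.78% of the receptors against 5.73% of 15528 genes, of which 2.26% were called higher.

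Smaller changes were common. By the adjusted p alone, 20 receptors differed in Ako-3, 7 higher and 13 lower, or 55.6% against 49.9% of all genes (25.5% higher and 24.4% lower). In Mko-3, 24 differed, 5 higher and 19 lower, or 66.7% against 54.0% of all genes (26.9% higher and 27.1% lower). Between the clones 17 differed, 3 higher and 14 lower in Mko-3, or 47.2% against 41.6% of all genes (21.1% higher and 20.6% lower). The libraries of the groups compared did not overlap for 24, 23 and 19 of the 36 receptors in these comparisons, against 57.8%, 60.7% and 49.6% of all genes. The median log2 fold change over the tested receptors was -0.13 in Ako-3, -0.20 in Mko-3 and -0.11 in Mko-3 against Ako-3, and the medians over all genes lay at -0.01, -0.01 and 0.00. Both comparisons with the control rest on the same 3 libraries, so their values below are given side by side. A difference between the clones was read only from the direct comparison.

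**Figure D2:**
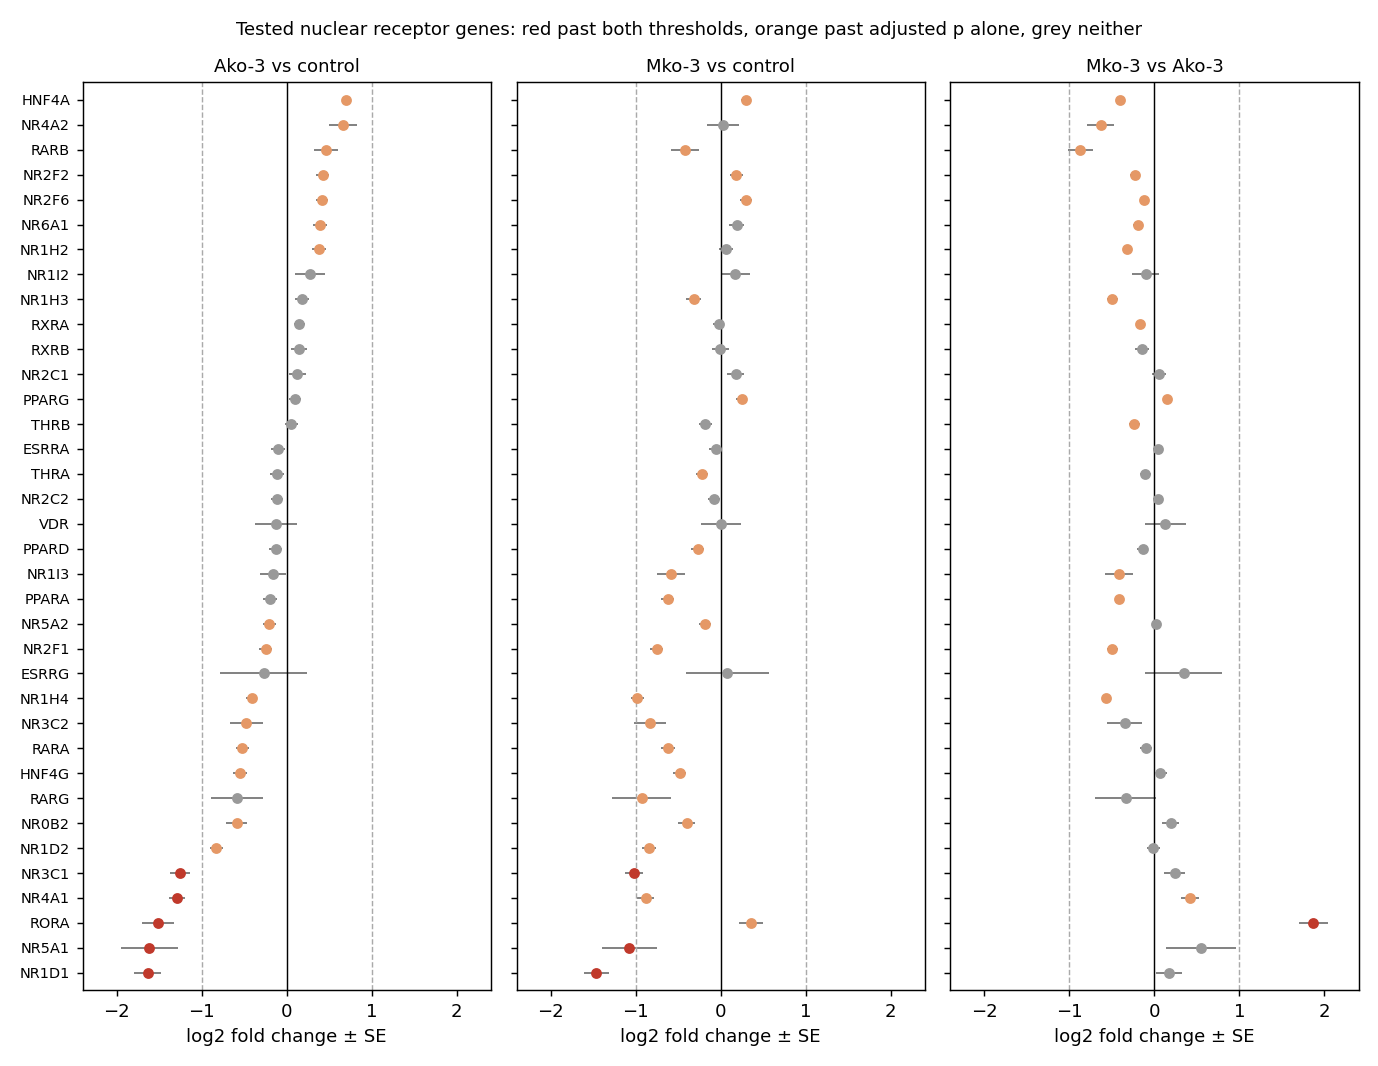
Log2 fold change ± SE of the 36 tested nuclear receptor genes in the 3 comparisons, ordered by the value in Ako-3, with dashed lines at a log2 fold change of 1 in either direction. Red points passed both thresholds (5, 3 and 1 genes), orange points the adjusted p alone and grey points neither. RORA lies far left in Ako-3 and far right in Mko-3 against Ako-3.

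The clock receptors held the lowest fold change of the family in both clones. NR1D1 encodes REV-ERB alpha, a haem-binding repressor of BMAL1 and other clock genes. Its levels were 9.10, 5.93 and 7.01 FPKM in control cells, 2.85, 2.15 and 2.17 FPKM in Ako-3, and 2.96, 2.30 and 2.86 FPKM in Mko-3. Every clone library lay below every control library, and the clones overlapped each other. The log2 fold change was -1.63 (SE 0.16, adjusted p = 1.61e-07) in Ako-3 and -1.46 (SE 0.15, adjusted p = 1.59e-07) in Mko-3. NR1D2, the paralog REV-ERB beta, was at 8.88, 8.64 and 9.03 FPKM in control cells, 5.27, 4.79 and 4.96 FPKM in Ako-3, and 4.60, 5.40 and 4.94 FPKM in Mko-3. It fell by 0.83 on the log2 scale (SE 0.08, adjusted p = 3.74e-08) in Ako-3 and by 0.84 (SE 0.08, adjusted p = 2.68e-08) in Mko-3, below the fold threshold. Between the clones NR1D2 differed by a log2 fold change of -0.01, with an interval of 2 standard errors from -0.17 to 0.14.

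RORA, which activates through the same DNA elements that the REV-ERB receptors repress, was the only receptor called between the clones. By the adjusted p alone 17 of 36 receptors differed there, and the clones' libraries did not overlap for 19. The level of RORA was low in every library. It was 0.400, 0.434 and 0.477 FPKM in control cells (113 to 148 counts), 0.120, 0.191 and 0.145 FPKM in Ako-3 (34 to 65 counts), and 0.557, 0.527 and 0.613 FPKM in Mko-3 (159 to 169 counts). The 3 groups did not overlap, with Ako-3 below and Mko-3 above the control. The log2 fold change was -1.51 (SE 0.19, adjusted p = 1.66e-06) in Ako-3 and 0.36 (SE 0.14, adjusted p = 0.0337) in Mko-3. In the direct comparison it was 1.87 (SE 0.17, adjusted p = 2.80e-15). The antisense gene RORA-AS1, which overlaps RORA, had 1 to 10 counts in any library.

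Overlapping genes limit how these counts can be read, because the strand setting of the counting is not given in the sources used here. NR1D1 overlaps the antisense gene THRA, the thyroid hormone receptor alpha, by 1081 bases at their ends on chromosome 17. THRA did not pass in Ako-3 (log2 fold change -0.11, adjusted p = 0.268) and was slightly lower in Mko-3 (-0.22, adjusted p = 0.0158). NR1D2 overlaps the antisense gene NKIRAS1 by 1332 bases on chromosome 3, and NKIRAS1 fell by 0.57 on the log2 scale in Ako-3 (adjusted p = 8.16e-05) and by 0.62 in Mko-3 (adjusted p = 2.42e-05). Reads in these shared stretches cannot be told apart.

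The promoters of NR1D1, NR5A1 and RORA are shown because these receptors had the lowest fold changes in Ako-3, and those of NR1D2 because it is the paralog of NR1D1. The sequences are RefSeq windows on GRCh38.p14, and of the 43 genes 38 had at least 1 window. Each line below gives the 250 bases upstream of an annotated transcript start, 5′ to 3′ on the gene's strand. Capitals mark any match, on either strand, to the nuclear receptor half-site AGGTCA, the E-box CACGTG bound by the clock activators, the cyclic AMP response element core TGACGT, or the TATA sequence TATAAA. The windows are NR1D1 at chr17:40100590-40100839 on the minus strand, NR1D2 at chr3:23945036-23945285 and chr3:23945871-23946120 on the plus strand, RORA at chr15:60627531-60627780 on the minus strand and NR5A1 at chr9:124507400-124507649 on the minus strand. The RORA start is that of a short isoform and lies inside the gene's span (chr15:60488284-61229319), and the second NR1D2 start lies inside NR1D2 (chr3:23945260-23980618).
NR1D1: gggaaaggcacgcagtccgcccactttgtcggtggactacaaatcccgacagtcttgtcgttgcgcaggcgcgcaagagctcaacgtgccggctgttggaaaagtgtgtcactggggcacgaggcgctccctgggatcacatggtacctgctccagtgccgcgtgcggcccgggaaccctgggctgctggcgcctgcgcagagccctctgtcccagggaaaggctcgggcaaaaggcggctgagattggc
NR1D2 first start: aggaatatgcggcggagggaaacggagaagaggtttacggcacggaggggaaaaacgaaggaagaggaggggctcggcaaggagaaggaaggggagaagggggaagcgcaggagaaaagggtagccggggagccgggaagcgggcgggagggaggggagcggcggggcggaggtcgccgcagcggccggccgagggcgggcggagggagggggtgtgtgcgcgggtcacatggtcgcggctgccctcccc
NR1D2 second start: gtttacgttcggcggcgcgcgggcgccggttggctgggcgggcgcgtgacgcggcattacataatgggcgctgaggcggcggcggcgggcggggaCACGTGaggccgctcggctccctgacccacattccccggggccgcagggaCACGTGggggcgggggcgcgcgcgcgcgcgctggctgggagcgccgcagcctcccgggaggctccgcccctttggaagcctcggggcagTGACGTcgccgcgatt
RORA: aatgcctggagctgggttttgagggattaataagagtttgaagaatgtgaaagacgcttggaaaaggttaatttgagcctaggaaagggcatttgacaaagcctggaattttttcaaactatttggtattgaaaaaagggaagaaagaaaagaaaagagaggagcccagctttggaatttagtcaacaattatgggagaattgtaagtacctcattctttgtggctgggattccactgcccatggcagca
NR5A1: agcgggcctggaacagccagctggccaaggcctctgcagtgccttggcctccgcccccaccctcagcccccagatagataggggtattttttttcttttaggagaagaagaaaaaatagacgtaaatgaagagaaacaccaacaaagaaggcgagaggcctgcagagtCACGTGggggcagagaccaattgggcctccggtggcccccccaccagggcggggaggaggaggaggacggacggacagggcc

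The second NR1D2 start held the E-box at -155 and -105, counted from the transcript start to the motif's first base, and TGACGT at -16. NR5A1 held the E-box at -82. The windows of NR1D1, RORA and the first NR1D2 start held none of the 4 sequences. Over windows of 300 bases, which add the 50 bases after the start, CACGTG occurred in 9 of 89 windows of the receptor genes (10.1%) and in 7.26% of all 35116 windows. AGGTCA occurred in 16.9% of the receptors' windows and 13.8% of all, TGACGT in 6.74% and 7.98%, and TATAAA in 7.87% and 11.5%. These are matches of letters and do not show that a factor binds there.

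**Figure D3:**
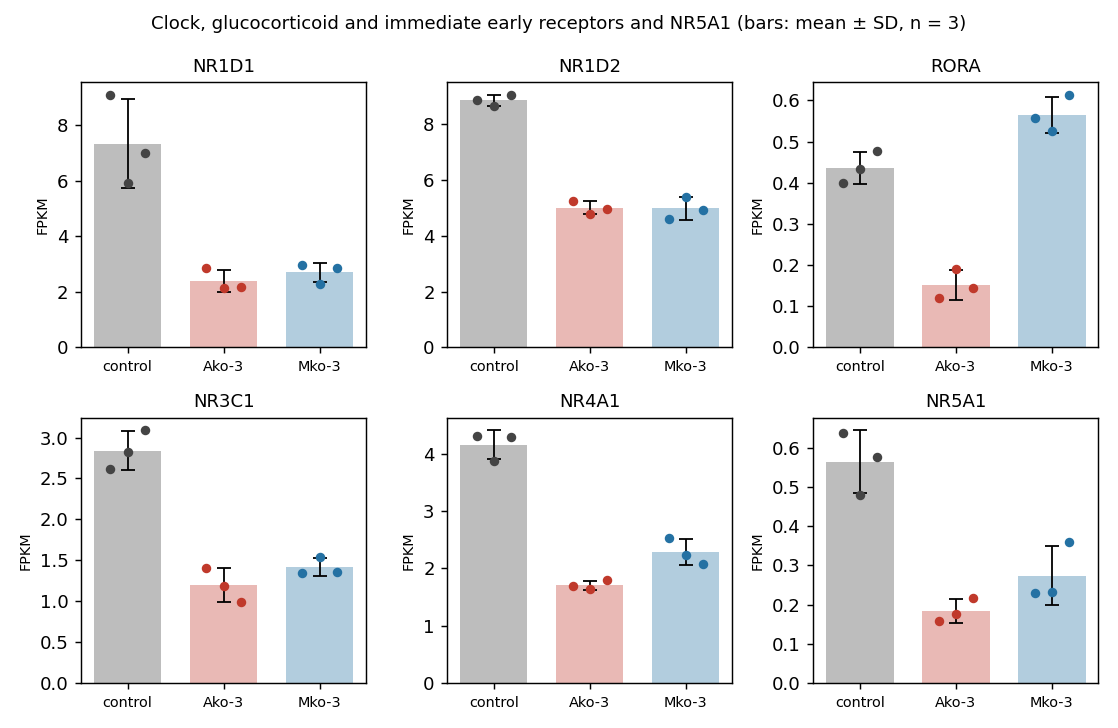
FPKM of NR1D1, NR1D2, RORA, NR3C1, NR4A1 and NR5A1 in control, Ako-3 and Mko-3 cells, with points for libraries and bars for the mean ± SD (n = 3). Both clones lie below the control in every panel except RORA, where the Mko-3 libraries (0.527 to 0.613 FPKM) lie above it.

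The steroid receptors were represented by NR3C1 and NR3C2. NR3C1 encodes the glucocorticoid receptor, which drives gluconeogenic and stress genes. It was at 2.62, 2.82 and 3.09 FPKM in control cells, 1.41, 1.19 and 0.993 FPKM in Ako-3, and 1.35, 1.54 and 1.35 FPKM in Mko-3. All clone libraries lay below the control. NR3C1 fell by 1.25 on the log2 scale in Ako-3 (SE 0.12, adjusted p = 5.12e-08) and by 1.02 in Mko-3 (SE 0.11, adjusted p = 6.41e-08). The Mko-3 value sat at the edge of the fold threshold, and it slipped under it, to between -0.98 and -0.95, without control replicate 3 or without Mko-3 replicate 1 or 3. NR3C2, the mineralocorticoid receptor, was at 0.767 ± 0.054 FPKM in control cells, 0.552 ± 0.119 in Ako-3 and 0.434 ± 0.050 in Mko-3, and passed the adjusted p in both clones (0.0459 and 0.000936).

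The NR4A receptors are immediate early genes that act without a known ligand and follow growth factor and cyclic AMP signals. NR4A1 was at 4.32, 3.87 and 4.29 FPKM in control cells, 1.70, 1.64 and 1.79 FPKM in Ako-3, and 2.53, 2.23 and 2.08 FPKM in Mko-3, so that the 3 groups did not overlap. NR4A1 fell by 1.29 on the log2 scale in Ako-3 (SE 0.10, adjusted p = 1.97e-09) and by 0.88 in Mko-3 (SE 0.10, adjusted p = 2.24e-07), and it was 0.41 higher in Mko-3 than in Ako-3 (adjusted p = 0.000991). NR4A2 went the other way in Ako-3. It was at 0.939, 1.11 and 1.23 FPKM in control cells, 1.67, 1.80 and 1.72 FPKM in Ako-3, and 1.10, 1.01 and 1.26 FPKM in Mko-3. The log2 fold change was 0.66 (SE 0.17, adjusted p = 0.00236) in Ako-3 and 0.03 (interval -0.34 to 0.40) in Mko-3, whose libraries overlapped the control. The ratio of NR4A1 to NR4A2 in FPKM thus went from a geometric mean of 3.83 in control cells to 0.987 in Ako-3 and 2.03 in Mko-3.

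Among the hepatocyte lineage receptors, HNF4A and its paralog HNF4G moved in opposite directions. HNF4A was at 64.5, 63.3 and 64.3 FPKM in control cells, 103, 105 and 105 FPKM in Ako-3, and 81.4, 78.5 and 78.3 FPKM in Mko-3. The groups did not overlap, and the order was control, Mko-3, Ako-3. On the log2 scale HNF4A was higher by 0.70 (SE 0.06, adjusted p = 3.41e-09) in Ako-3, and by 0.30 (SE 0.06, adjusted p = 0.000107) in Mko-3, and the fold change of Mko-3 against Ako-3 was -0.40 (SE 0.04, adjusted p = 1.17e-15). HNF4G was at 9.49, 8.87 and 9.39 FPKM in control cells, 6.84, 6.30 and 5.87 FPKM in Ako-3, and 6.40, 7.08 and 6.55 FPKM in Mko-3. Both clones lay below the control and overlapped each other. HNF4G fell by 0.55 on the log2 scale in Ako-3 (SE 0.08, adjusted p = 1.38e-05) and by 0.48 in Mko-3 (SE 0.08, adjusted p = 3.24e-05). The ratio of HNF4A to HNF4G had a geometric mean of 6.93 in control cells, 16.5 in Ako-3 and 11.9 in Mko-3, and with 3 libraries a group no exact permutation test of such a ratio can give a two-sided p below 0.1. The antisense gene HNF4A-AS1, which overlaps HNF4A, was lower in Mko-3 (log2 fold change -2.10, adjusted p = 3.10e-07) and did not pass in Ako-3 (-0.37, adjusted p = 0.0995).

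The NR5A receptors bind as monomers and act on bile acid and steroid synthesis genes. NR5A2, or LRH-1, which drives bile acid synthesis in liver, was at 14.5, 12.3 and 13.7 FPKM in control cells, 12.2, 12.1 and 11.0 FPKM in Ako-3, and 12.4, 12.0 and 11.7 FPKM in Mko-3. It fell by 0.20 on the log2 scale in Ako-3 (adjusted p = 0.0272) and by 0.18 in Mko-3 (adjusted p = 0.0370), and the Mko-3 libraries overlapped the control. NR5A1, or SF-1, the steroidogenic factor of adrenal and gonad, was at 0.637, 0.478 and 0.577 FPKM in control cells, 0.159, 0.176 and 0.218 FPKM in Ako-3, and 0.230, 0.231 and 0.360 FPKM in Mko-3. These levels rest on 25 to 41, 9 to 13 and 14 to 19 counts. The clone libraries lay below the control, and NR5A1 fell by 1.62 on the log2 scale in Ako-3 (SE 0.33, adjusted p = 0.000402) and by 1.07 in Mko-3 (SE 0.32, adjusted p = 0.00775). The Mko-3 call was lost, at -0.97 to -0.95, without control replicate 1 or without Mko-3 replicate 1 or 2. NR5A1 lies 9845 bases from NR6A1 on chromosome 9, and NR6A1, the germ cell nuclear factor, was higher in Ako-3 (log2 fold change 0.39, adjusted p = 0.000586).

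**Figure D4:**
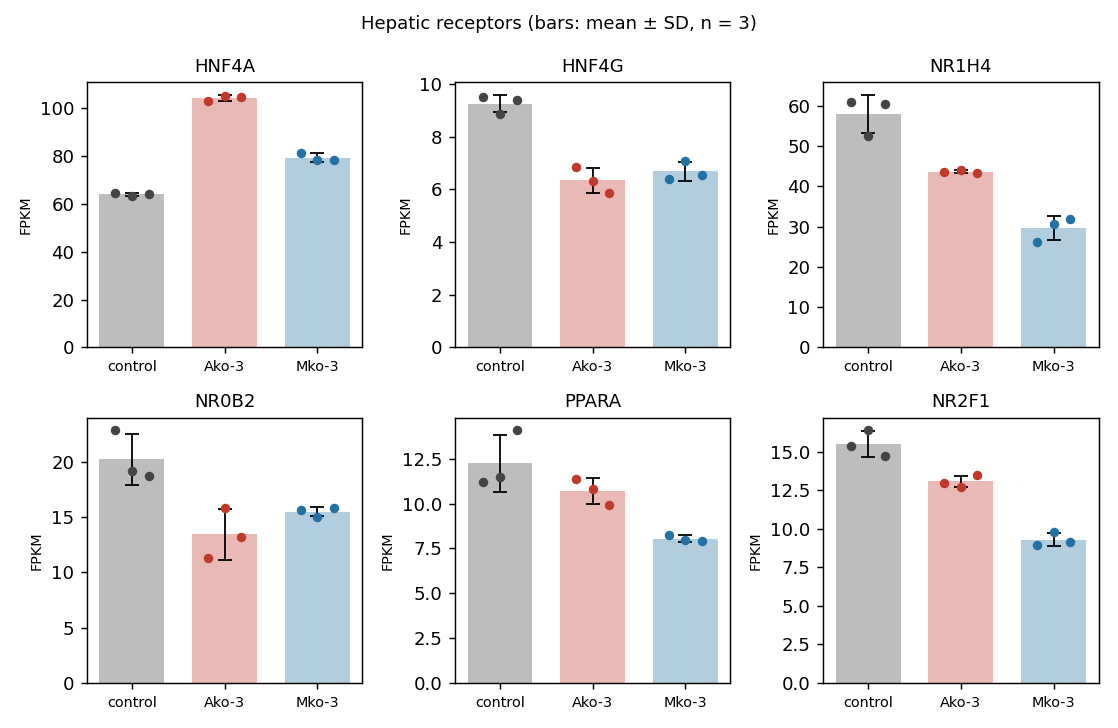
FPKM of HNF4A, HNF4G, NR1H4, NR0B2, PPARA and NR2F1 in the 3 groups, with points for libraries and bars for the mean ± SD (n = 3). HNF4A is above the control in both clones, and the Mko-3 libraries of NR1H4, PPARA and NR2F1 lie below all libraries of the other groups.

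Of the 6 bile acid, oxysterol and fatty acid sensors, 1 was higher and 1 lower in Ako-3 by the adjusted p, and 1 was higher and 4 lower in Mko-3. NR1H4 was at 60.9, 52.3 and 60.3 FPKM in control cells, 43.4, 44.1 and 43.4 FPKM in Ako-3, and 26.2, 30.7 and 31.9 FPKM in Mko-3. The groups stood apart in this order. The log2 fold change was -0.41 (SE 0.07, adjusted p = 3.49e-05) in Ako-3, -0.98 (SE 0.08, adjusted p = 1.95e-09) in Mko-3 and -0.57 (SE 0.05, adjusted p = 6.29e-15) between the clones. It passed the fold threshold in Mko-3, at -1.04 and -1.02, without control replicate 2 or Mko-3 replicate 3. NR0B2, which FXR induces and which lacks a DNA-binding domain, was at 22.8, 19.1 and 18.7 FPKM in control cells, 11.3, 15.8 and 13.2 FPKM in Ako-3, and 15.6, 15.0 and 15.8 FPKM in Mko-3. Both clones lay below the control and overlapped each other. NR0B2 fell by 0.59 on the log2 scale in Ako-3 (adjusted p = 0.000411) and by 0.40 in Mko-3 (adjusted p = 0.00241). NR0B2 overlaps NUDC, on the other strand, over its whole span of 2478 bases. The strand setting is not given, so reads shared with NUDC cannot be told apart anywhere in NR0B2. NUDC was higher in both clones (log2 fold changes 0.60 and 0.92, adjusted p = 1.19e-05 and 5.89e-09).

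The oxysterol receptors LXR alpha and LXR beta, encoded by NR1H3 and NR1H2, induce cholesterol efflux and lipogenic genes. NR1H3 was at 12.7, 11.1 and 10.1 FPKM in control cells, 13.2, 13.2 and 12.2 FPKM in Ako-3, and 9.77, 8.95 and 8.79 FPKM in Mko-3. Ako-3 overlapped the control (log2 fold change 0.18, adjusted p = 0.0771), Mko-3 lay below it (-0.32, adjusted p = 0.00382), and the clones differed by -0.49 (SE 0.06, adjusted p = 8.91e-10). NR1H2 was at 14.9 ± 1.64 FPKM in control cells, 19.5 ± 0.624 in Ako-3 and 15.7 ± 0.888 in Mko-3, and was higher in Ako-3 (log2 fold change 0.38, adjusted p = 0.000475).

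Of the fatty acid receptors, PPARA, the driver of fatty acid oxidation in liver, was at 11.2, 11.5 and 14.1 FPKM in control cells, 11.4, 10.8 and 9.90 FPKM in Ako-3, and 8.26, 7.98 and 7.88 FPKM in Mko-3. Only the Mko-3 libraries were clear of the control. The log2 fold change was -0.62 (SE 0.08, adjusted p = 1.03e-06) in Mko-3, -0.20 (adjusted p = 0.0550) in Ako-3 and -0.42 (SE 0.05, adjusted p = 4.49e-11) between the clones. PPARG was at 24.1, 22.6 and 22.9 FPKM in control cells, 25.0, 26.1 and 23.6 FPKM in Ako-3, and 29.6, 27.1 and 26.7 FPKM in Mko-3. It was higher in Mko-3 (log2 fold change 0.25, adjusted p = 0.00284) and did not pass in Ako-3 (0.10, adjusted p = 0.226). PPARD, the widely expressed paralog, was at 10.1, 10.4 and 10.9 FPKM in control cells, 9.83, 9.78 and 9.19 FPKM in Ako-3, and 9.24, 8.43 and 8.61 FPKM in Mko-3, and was lower in Mko-3 (log2 fold change -0.27, adjusted p = 0.00551). The ratio of PPARA to PPARG in FPKM had a geometric mean of 0.526 in control cells, 0.430 in Ako-3 and 0.289 in Mko-3.

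The xenobiotic receptors NR1I2 (PXR) and NR1I3 (CAR), which induce drug-metabolising enzymes, were low. NR1I2 was at 1.05, 0.828 and 1.14 FPKM in control cells, 0.975, 1.44 and 1.25 FPKM in Ako-3, and 1.23, 1.14 and 1.07 FPKM in Mko-3. The groups overlapped, and the intervals of the log2 fold change, -0.08 to 0.63 in Ako-3 and -0.16 to 0.51 in Mko-3, leave room for moderate changes. NR1I3 was at 2.24, 2.02 and 2.03 FPKM in control cells, 1.99, 1.78 and 1.87 FPKM in Ako-3, and 1.49, 1.42 and 1.32 FPKM in Mko-3, and was lower in Mko-3 (log2 fold change -0.58, adjusted p = 0.00410). VDR, the vitamin D receptor, was at 0.431, 0.496 and 0.377 FPKM in control cells, 0.298, 0.424 and 0.465 FPKM in Ako-3, and 0.366, 0.468 and 0.481 FPKM in Mko-3. It overlapped in all groups, with intervals of -0.63 to 0.37 and -0.47 to 0.47.

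Neither expressed heterodimer partner passed the test against control cells. RXRA was at 13.4, 14.5 and 12.7 FPKM in control cells, 14.9, 14.5 and 15.6 FPKM in Ako-3, and 13.2, 13.1 and 13.9 FPKM in Mko-3. Its log2 fold change did not pass in Ako-3 (0.15, interval 0.02 to 0.28, adjusted p = 0.0642) or in Mko-3 (-0.02, interval -0.15 to 0.10), although the clones differed by -0.17 (adjusted p = 0.00160). RXRB did not pass in any comparison, and its mean stayed between 6.10 and 6.77 FPKM.

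Of the receptors for retinoic acid and thyroid hormone, RARA was lower in both clones, at 9.52 ± 0.466 FPKM in control cells, 6.66 ± 0.309 in Ako-3 and 6.24 ± 0.227 in Mko-3 (log2 fold changes -0.52 and -0.62, adjusted p = 1.77e-05 and 1.39e-06). RARB, itself a retinoic acid induced gene, stood on opposite sides of the control in the clones. It was at 1.67, 1.93 and 1.96 FPKM in control cells, 2.35, 2.55 and 2.74 FPKM in Ako-3, and 1.26, 1.48 and 1.46 FPKM in Mko-3, with no overlap. RARB was higher by 0.46 on the log2 scale in Ako-3 (adjusted p = 0.0105), fell by 0.42 in Mko-3 (adjusted p = 0.0336), and the fold change of Mko-3 against Ako-3 was -0.87 (SE 0.15, adjusted p = 7.19e-07). RARG rested on 11 to 39 counts and was lower in Mko-3 (log2 fold change -0.93, SE 0.35, adjusted p = 0.0299). Without Mko-3 replicate 1 the RARG fold change passed the fold threshold, at -1.47 (adjusted p = 0.00475). THRB did not pass against the control in either clone (log2 fold changes 0.06 and -0.18, adjusted p = 0.562 and 0.0552) and was lower in Mko-3 than in Ako-3 (-0.24, adjusted p = 0.00128).

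The COUP-TF receptors are orphan receptors that often compete with HNF4A for its sites. NR2F1 was at 15.4, 16.4 and 14.7 FPKM in control cells, 13.0, 12.7 and 13.5 FPKM in Ako-3, and 8.98, 9.79 and 9.12 FPKM in Mko-3. The groups did not overlap, and NR2F1 fell by 0.25 on the log2 scale in Ako-3 (adjusted p = 0.00664) and by 0.75 in Mko-3 (SE 0.08, adjusted p = 4.25e-08). NR2F1-AS1, which overlaps it on the other strand, was also lower in Mko-3 (log2 fold change -0.91, adjusted p = 6.95e-05). NR2F2 was at 7.39, 8.10 and 7.46 FPKM in control cells, 10.3, 10.0 and 10.5 FPKM in Ako-3, and 8.47, 9.08 and 8.75 FPKM in Mko-3. It was higher in both clones (log2 fold changes 0.42 and 0.19, adjusted p = 6.23e-05 and 0.0389), and the ratio of NR2F1 to NR2F2 went from a geometric mean of 2.03 to 1.27 in Ako-3 and 1.06 in Mko-3. NR2F6 was at 136, 142 and 114 FPKM in control cells, 168, 182 and 176 FPKM in Ako-3, and 164, 160 and 163 FPKM in Mko-3, above the control in every clone library (log2 fold changes 0.42 and 0.30, adjusted p = 5.08e-05 and 0.000855). The testicular receptors NR2C1 and NR2C2 did not pass in any comparison, with log2 fold changes from -0.11 to 0.18.

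ESRRA was at 27.0, 24.0 and 21.9 FPKM in control cells, 22.1, 21.8 and 24.2 FPKM in Ako-3, and 23.4, 22.4 and 24.9 FPKM in Mko-3. The groups overlapped, with intervals of -0.26 to 0.06 in Ako-3 and -0.22 to 0.10 in Mko-3 for the log2 fold change. Its relative ESRRG had 4 to 21 counts in any library, and its intervals against the control reached from -1.29 to 1.06, so a change within them was not detectable at this depth. In bulk RNA such as this, fewer cells that express a receptor and less of its RNA per cell cannot be told apart.

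Genes that work with the receptors were taken from 13 lists of coregulators, known targets and ligand-handling genes, 147 genes in all. Of these, 14 of 128 tested were called in Ako-3 (10.9%), 24 of 127 in Mko-3 (18.9%) and 14 of 127 between the clones (11.0%), beside the background rates of 8.52%, 11.0% and 5.73%. By the adjusted p alone, 71 of 128 passed in Ako-3 (55.5%), 78 of 127 in Mko-3 (61.4%) and 87 of 127 between the clones (68.5%). The shares of all genes past the adjusted p were 49.9%, 54.0% and 41.6%. Counts of genes higher or lower in the lists below are by the adjusted p alone and stand against these shares. A list's count describes its genes and does not show the activity of the receptor.

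In the clock list, 8 of 14 tested genes were lower in Ako-3 by the adjusted p and 0 higher, and 8 were lower and 0 higher in Mko-3, with list medians of -0.31 and -0.37. The output factors DBP and HLF had log2 fold changes of -0.36 and -0.69 in Ako-3 and of -1.30 and -1.02 in Mko-3. The period gene PER1 had -0.50 and -1.09, and NFIL3, which opposes DBP, had -0.94 and -1.00, all past the adjusted p. Of 11 glucocorticoid receptor targets, 5 were lower and 2 higher in Ako-3, and 7 were lower and 1 higher in Mko-3. TSC22D3, or GILZ, fell by 1.19 and 1.13 on the log2 scale (adjusted p = 2.95e-09 and 5.70e-09). FKBP5 was among the targets that were higher, with log2 fold changes of 0.61 in Ako-3 and 0.70 in Mko-3 (adjusted p = 0.000502 and 9.79e-05). PCK1, the gluconeogenic enzyme, did not pass in Ako-3 (log2 fold change -0.14, adjusted p = 0.218) and was lower in Mko-3 (-2.03, adjusted p = 8.04e-11). PER1 stands in both lists.

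Of 15 tested HNF4A targets, 10 were higher and 0 lower in Ako-3 by the adjusted p, and 3 were higher and 5 lower in Mko-3. Between the clones 12 were lower in Mko-3 and 1 higher, with a list median of -0.62. APOA2 was at 277 ± 6.66 FPKM in control cells, 561 ± 25.8 in Ako-3 and 285 ± 14.9 in Mko-3. OTC, a urea cycle enzyme, was higher in both clones (log2 fold changes 1.92 and 1.09, adjusted p = 3.82e-11 and 3.17e-07), and PKLR, the liver pyruvate kinase, was lower in Mko-3 (-1.28, adjusted p = 4.71e-09).

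Of 7 tested genes that FXR induces, 1 was higher and 2 lower in Ako-3, and 0 were higher and 4 lower in Mko-3. FGF19, the bile acid induced hormone, was at 18.6 ± 0.984 FPKM in control cells, 6.15 ± 0.696 in Ako-3 and 12.6 ± 0.333 in Mko-3. SLC51B, a subunit of the basolateral bile acid exporter, was at 34.1 ± 1.3, 32.7 ± 1.5 and 16.9 ± 1.7 FPKM in that order. Of the 3 genes that FXR represses, only CYP8B1 was tested in any comparison, and it was lower in Mko-3 than in Ako-3 (log2 fold change -1.32, adjusted p = 0.0420). That value rests on 8 to 19 counts in Ako-3 libraries and 2 to 9 in Mko-3 libraries, and the libraries of the clones overlapped.

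Of 11 tested oxysterol receptor targets, 6 were higher and 1 lower in Ako-3, 2 were higher and 6 lower in Mko-3, and 9 were lower and 0 higher in Mko-3 against Ako-3. The sterol exporter genes ABCG5 and ABCG8 were lower in Mko-3 than in Ako-3 (log2 fold changes -2.54 and -2.44, adjusted p = 9.45e-23 and 2.30e-12), as was PLTP, the phospholipid transfer protein (-1.38, adjusted p = 1.30e-41). Of 19 tested PPAR targets, 8 were higher and 4 lower in Ako-3, and 6 were higher and 7 lower in Mko-3. FGF21, the fasting hormone, had 15 to 25 counts in control libraries, 1 to 6 in Ako-3 and 0 to 2 in Mko-3. PDK4 had log2 fold changes of -1.09 and -0.79 (adjusted p = 0.000180 and 0.00229).

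Of 10 tested xenobiotic receptor targets, 3 were higher and 2 lower in Ako-3, and 4 were higher and 4 lower in Mko-3. CYP2B6, the classic CAR target, was at 4.18 ± 0.295 FPKM in control cells, 16.7 ± 0.977 in Ako-3 and 10.2 ± 1.03 in Mko-3. SULT2A1, of the same list, did not pass in Ako-3 (log2 fold change 0.24, adjusted p = 0.108). It was lower in Mko-3 (-0.94, adjusted p = 8.20e-06). Of 5 tested genes each, 3 vitamin D handling genes were higher and 0 lower in Ako-3 and 2 higher and 2 lower in Mko-3, and 2 thyroid hormone genes were higher and 2 lower in Ako-3 and 1 higher and 3 lower in Mko-3. GC, the vitamin D binding protein, was higher in both clones (log2 fold changes 2.33 and 2.28), as was SERPINA7, the thyroxine-binding globulin (2.14 and 1.42), and DIO1, which activates thyroid hormone, was lower (-0.96 and -1.89), all past the adjusted p. Of 9 tested retinoid handling genes, 1 was higher and 2 lower in Ako-3, and 2 were higher and 3 lower in Mko-3.

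Of 13 coactivators, 3 were higher and 2 lower in Ako-3, and 2 were higher and 2 lower in Mko-3, with PPARGC1A the only one called. PPARGC1A, the coactivator PGC-1 alpha, was already low in control cells at 0.186 ± 0.049 FPKM, and was at 0.0685 ± 0.0080 in Ako-3 and 0.0210 ± 0.0133 in Mko-3, on 27 to 48, 12 to 14 and 1 to 6 counts. Of 9 corepressors, 0 were higher and 5 lower in Ako-3, and 1 was higher and 4 lower in Mko-3, with none called by edgeR in either.

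**Figure D5:**
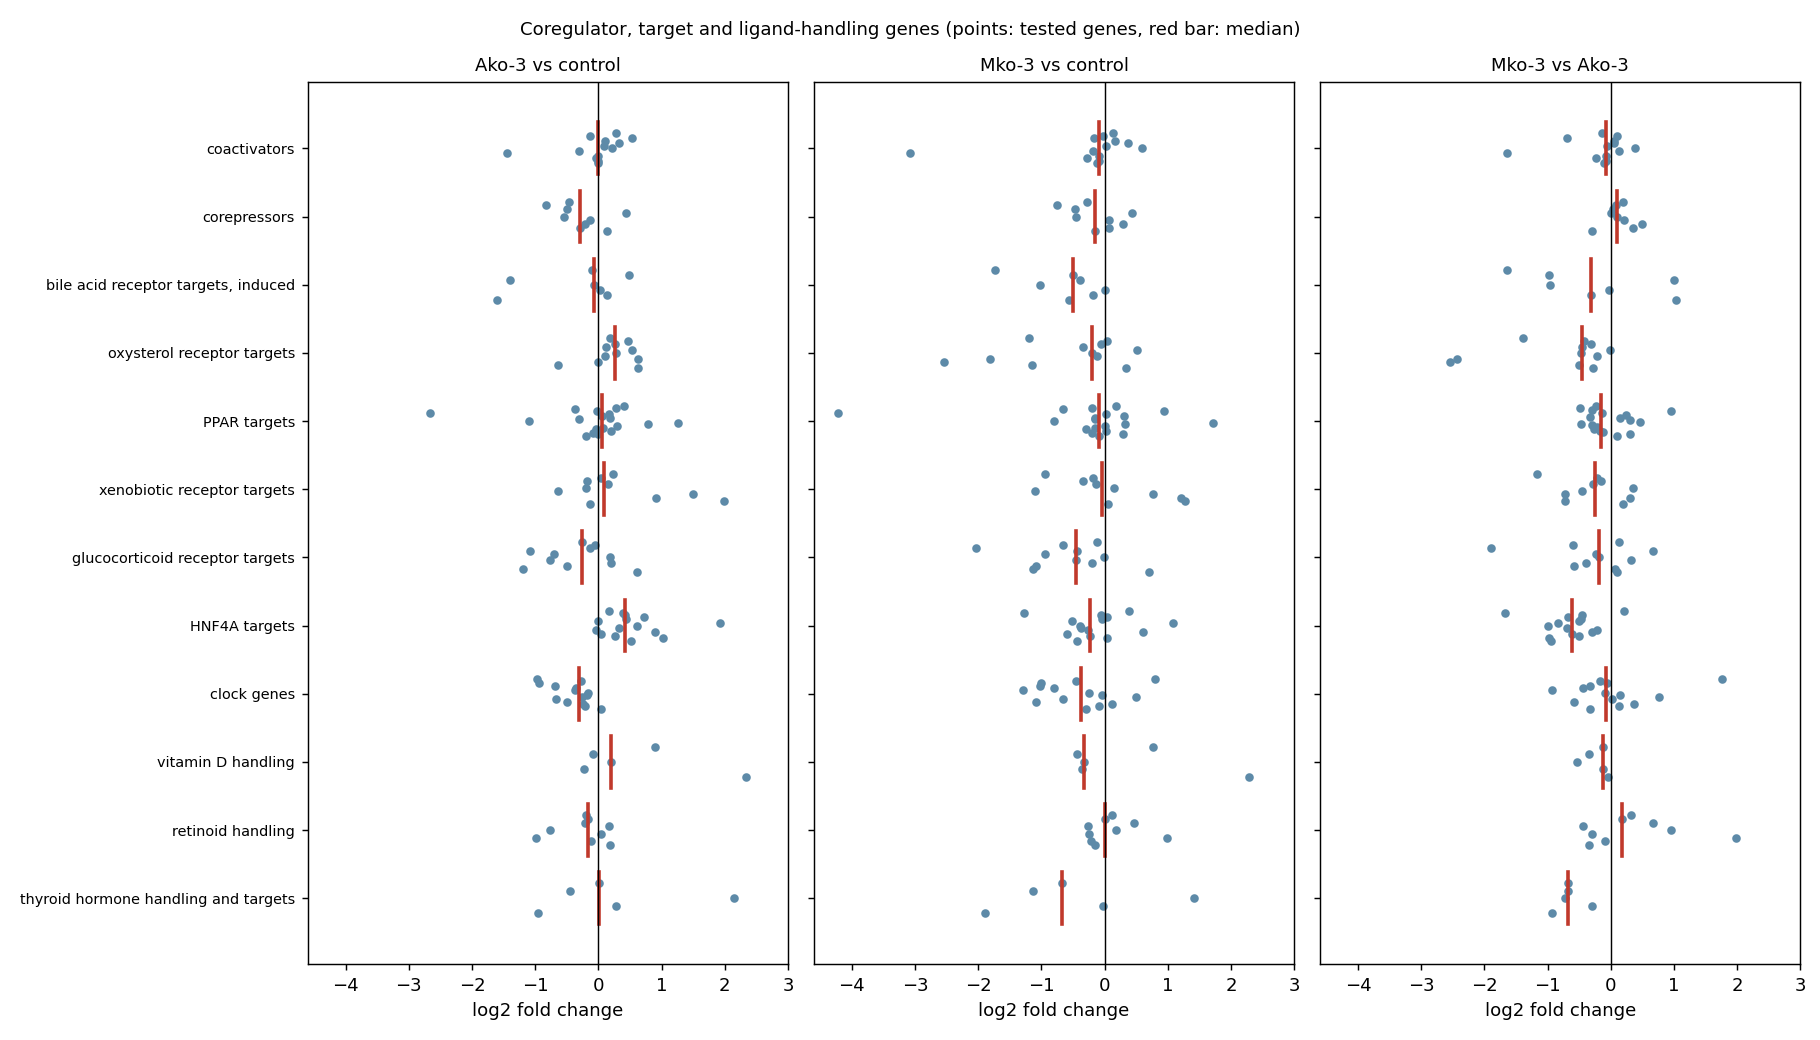
Log2 fold changes of the tested genes of 12 lists of coregulators, receptor targets and ligand-handling genes in the 3 comparisons, with a red bar at each list's median. The median of the HNF4A targets lies at 0.41 in Ako-3, -0.23 in Mko-3 and -0.62 in Mko-3 against Ako-3, and that of the clock genes at -0.31, -0.37 and -0.08.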

How the data were processed

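The authors aligned paired reads to hg38 with HISAT2 2.0.5 and counted them per gene with featureCounts 1.5.0-p3, and deposited the counts and FPKM values of all 9 libraries. In the deposited FPKM each count was scaled by the length of the gene and by a size proportional to the library's DESeq2 size factor. The annotation release and strand setting are not given in the sources used here. Of the shared gene identifiers, 58155 of 58207 lay where the GENCODE reference on hg38 has them, and no column came from other samples.

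Each comparison was fitted with edgeR 4.0.16 (R 4.3.3) on the 6 libraries concerned, with TMM scaling, filterByExpr at a minimum count of 10 and the robust quasi-likelihood test, and adjusted over all genes. SE is the log2 fold change divided by the root of the F statistic, and intervals are 2 SE wide on each side. Alternatives were DESeq2 1.42.0, other size factors, filters and library sets, and a replicate block. The edgeR tests were also run on counts simulated with the genes and dispersions of these fits, and that outcome is not reported here. The 3 libraries of a group are labelled as biological replicates of 1 line or clone, with no word on how they were separated, so p-values measure the spread between such libraries. Genes were described as follows: each called member and 20 receptors of liver interest by library, the others by ranges, and up to 4 called genes per list by smallest adjusted p. FKBP5, which was not called, was added as a glucocorticoid receptor target that was higher. The members and lists were chosen with earlier results of these data known.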

Additional observations from a re-analysis of the deposited data

Results flagged for a closer look

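RORA was flagged because its change against control cells differed between the clones in the direct test: its log2 fold change in Mko-3 against Ako-3 was 1.87 (SE 0.17, adjusted p = 2.80e-15 by edgeR), with 159 to 169 counts in each Mko-3 library and 34 to 65 in each Ako-3 library. It was called in this comparison in every one of the 12 alternative fits.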

How the results depend on the processing

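The member calls in Ako-3 were the same 5 genes in 11 of 12 alternatives, and NR5A1 was not tested when 10 counts were required in every library. That filter lowered the calls over all genes from 1345 to 841 in Ako-3, from 1739 to 1113 in Mko-3 and from 890 to 511 between the clones, and the calls among coregulator, target and ligand-handling genes between the clones from 14 to 8, because fewer genes were tested. In Mko-3, NR3C1 fell under the fold threshold without a filter (-0.99). Values near 0 changed sign. Leaving out 1 library put VDR between -0.25 and 0.039 in Ako-3, between -0.093 and 0.12 in Mko-3 and between -0.030 and 0.25 between the clones. In Mko-3 it put RXRA between -0.066 and 0.037 and ESRRA between -0.13 and 0.029. Between the clones it put NR1I2 between -0.24 and 0.044, NR5A2 between -0.025 and 0.050 and NR1D2 between -0.079 and 0.044. RXRA was at 0.00956 in Mko-3 without a filter, and VDR at -0.0109 with the strict filter and -0.00598 with the replicate block. The replicate numbers do not pair the libraries: same-numbered libraries' deviations correlated between -0.072 and 0.064, and the replicate block changed no member call. Low depth limits NR5A1, RARG and ESRRG most.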
